A study of Mus musculus with 64 samples.

Results

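Telethonin (gene symbol Tcap) and 9 further genes of the cardiac sarcomere were followed over the day in whole hearts of wild type mice and of mice lacking the clock protein BMAL1 in cardiomyocytes. The genes were chosen by symbol in the platform annotation: Tcap, Csrp3, Actn2, Des, Mybpc3, Myh6, Myl2, Myl3, Tnnt2 and Tnni3. Of these 10 genes, 9 were represented by a total of 12 probes among 16593 named genes on the array, and Tnnt2 was not analysed here because no probe carried that symbol. Each of the 12 probes was detected on all 64 arrays, and all 12 belong to the 12101 probes that were tested.

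The sarcomere is the contractile unit of heart muscle, built from thick filaments of myosin and thin filaments of actin that slide past each other. Thin filaments are anchored at the Z-disc, where the giant protein titin also ends, and telethonin caps the end of titin there. Desmin filaments tie neighbouring Z-discs together, and myosin light chains, myosin binding protein C and the troponin complex tune the force and timing of contraction. BMAL1, encoded by Arntl, pairs with CLOCK to form the transcription factor at the centre of the circadian clock.

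RNA came from male mice with a C57Bl/6J background that ate standard chow freely, with lights on for 12 h and off for 12 h each day. The control group, labelled WT, was made of littermates, and the other group, labelled CBK and called knockout here, carried the cardiomyocyte-specific deletion of BMAL1. The labels name neither the age of the mice, nor the Cre line behind the deletion, nor any allele that both genotypes share. Many cardiomyocyte Cre lines are driven by the promoter of Myh6, one of the genes described here, and whether this line is one of them is not given in the labels. Hearts were collected every 3 h at 8 times of day, given as zeitgeber time (ZT) counted from lights on, and each genotype had 4 arrays per time. This gave 32 arrays per genotype, on Illumina MouseRef-8 v2 bead arrays. The samples are numbered, but whether each is a mouse of its own is not stated. A p-value therefore reflects how far samples spread around the values fitted for their group, which may be technical in part.

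Between 9237 and 10605 of 25697 probes were detected per array. The median raw intensity lay between 119 and 196 units, and the number of arrays limits the precision. For the targeted gene, Arntl, the fitted 24 h amplitude was 1.60 ± 0.08 log2 units in wild type and 0.59 ± 0.08 in knockout (SE), and the rhythms differed (limma, adjusted p = 2.2e-09). Its 24 h mean differed by 0.07 ± 0.08, which did not pass the test (adjusted p = 0.528). Arntl signal was lower in knockout at ZT0 (-0.82 ± 0.20, adjusted p = 0.00377) and higher at ZT15 (1.37 ± 0.20, adjusted p = 8.1e-07). Whole hearts hold other cells than cardiomyocytes, and where this probe lies relative to the deleted part was not determined, so its level checks the labels only in part. Arrays of ZT0, 6, 12 and 18 carry sample numbers 1 to 154 and arrays of ZT3, 9, 15 and 21 carry 156 to 209, and this split of the times into 2 sets of 32 arrays was a term of the fit. The distance of an array from its group mean exceeded 1.5 times the median distance on 4 of the 64 arrays, namely knockout ZT9 replicates 170 and 206, wild type ZT6 replicate 1 and knockout ZT6 replicate 2. No call on the 24 h mean of a sarcomere probe changed without these 4 arrays, a comparison that was added after seeing the data.

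Over the whole day, Tcap was lower in knockout hearts and 4 other genes were higher. Tcap fell by 1.28 ± 0.07 on the log2 scale (SE, 32 arrays per genotype), which is 2.43-fold lower. The Z-disc genes Csrp3 and Actn2, the intermediate filament gene Des and the thick filament gene Mybpc3 rose by 0.25 to 0.41. The myosin light chains Myl2 and Myl3 did not pass the test, and the troponin gene Tnni3 and 1 of 2 Myh6 probes were slightly lower. In probes, 6 of 12 were called higher and 3 were called lower at an adjusted p under 0.05, against a background of 17% of all 12101 tested probes called higher and 17.4% called lower. The median difference over the 12 probes was 0.12, against -0.01 over all tested probes. Csrp3 gives 3 of the 12 probes, all higher, and Myh6 gives 2, so these counts and this median weigh genes unequally. The median is therefore not read as a shift of the sarcomere genes as a set. At 8 of 8 times the sign was the same for 8 of the 12 probes, against 19.7% of all tested probes. In bulk tissue, fewer cells of a type and less RNA per cell cannot be told apart, and this holds for each difference below.

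**Figure D1:**
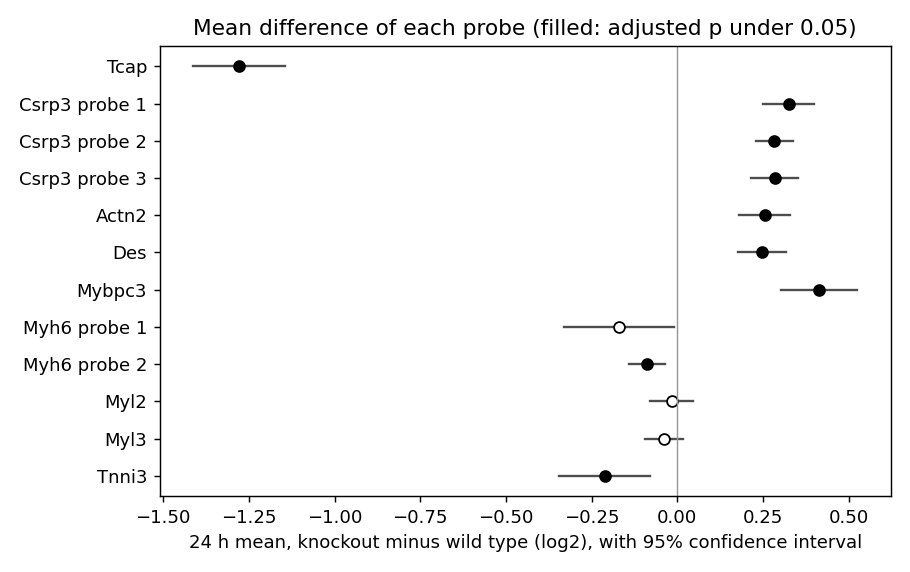
The horizontal axis gives the difference of the 24 h means, knockout minus wild type, in log2 units, for each of the 12 sarcomere probes. Points are limma estimates from 32 arrays per genotype, bars are 95% confidence intervals, and filled points have an adjusted p under 0.05. Tcap lies alone on the left at -1.28, and the 6 probes of Csrp3, Actn2, Des and Mybpc3 lie between 0.25 and 0.41.

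Tcap encodes telethonin, also called titin-cap, a small Z-disc protein of heart and skeletal muscle. At ZT0 the 4 wild type arrays read 11.42, 11.50, 11.58 and 11.82 (normalized log2 signal), and the knockout arrays read 10.75, 10.99, 11.59 and 11.65. At ZT3 wild type read 11.98, 12.15, 12.16 and 12.46, and knockout 11.02, 11.09, 11.19 and 11.31. The genotypes overlapped at ZT0, where knockout replicates 6 and 8 lay inside the wild type range, and were separate at ZT3. At ZT6 wild type read 12.56, 12.66, 12.72 and 13.06, and knockout 11.00, 11.14, 11.41 and 11.84. At ZT9 wild type read 13.14, 13.41, 13.43 and 13.44, and knockout 11.33, 11.50, 11.75 and 12.23. Wild type signal had climbed by ZT9 to its highest group mean, 13.35 ± 0.14 (SD, n = 4), and the knockout group mean was also highest then, at 11.70 ± 0.39. At ZT12 wild type read 12.85, 13.07, 13.07 and 13.17, and knockout 11.17, 11.51, 11.53 and 11.83. At ZT15 wild type read 13.13, 13.21, 13.25 and 13.35, and knockout 10.99, 11.24, 11.26 and 11.29. The gap between the genotypes was widest at ZT15, 3 h into the dark phase. At ZT18 wild type read 12.16, 12.43, 12.43 and 13.07, and knockout 11.06, 11.09, 11.13 and 11.50. At ZT21 wild type read 11.81, 12.06, 12.23 and 12.30, and knockout 11.04, 11.16, 11.27 and 11.34. All 4 knockout arrays lay below all 4 wild type arrays at 7 of 8 times, the exception being ZT0. Such a separation at 7 or more times occurred in 0.901% of all tested probes.

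**Figure D2:**
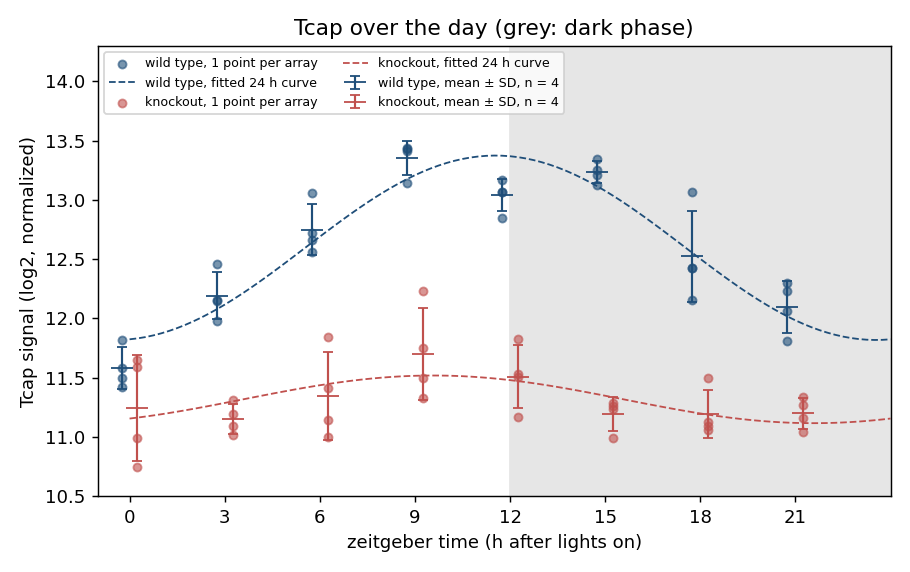
The vertical axis gives the normalized log2 signal of Tcap and the horizontal axis the zeitgeber time in hours, with the dark phase in grey. Points are single arrays, bars are group means ± SD (n = 4), and dashed lines are the fitted 24 h curves without the time set term. The wild type curve runs from a low near lights on to a peak at ZT11.5, and the knockout points stay between 10.75 and 12.23.

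Tcap was chosen partly because it was rhythmic in wild type, so its wild type rhythm is given as a description. The fitted wild type amplitude (the height of the curve over its mean) was 0.78 ± 0.07 log2 units with a peak at ZT11.5 ± 0.33 h (SE), a 2.94-fold span from trough to peak. In knockout the amplitude was 0.20 ± 0.07 with a peak at ZT9.58 ± 1.27 h, a 1.32-fold span, and this rhythm did not pass the test (limma F test, adjusted p = 0.220). The knockout amplitude was thus 25.8% of the wild type one. The amplitudes differed by -0.58 ± 0.09 (95% confidence interval -0.77 to -0.39), and the rhythm difference passed the test with an adjusted p of 0.000124. That test is not independent of the choice of Tcap as rhythmic in wild type. Of all tested probes, 3.55% were called rhythmic in wild type, 1.17% in knockout and 0.24% in the difference of rhythm (29 probes), and Tcap had the 9th largest loss of amplitude among those 29. On the 32 arrays of ZT0, 6, 12 and 18 alone the difference was of like size, -0.59, but missed the threshold (adjusted p = 0.624).

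On the log2 scale the 24 h mean of Tcap was 12.60 in wild type against 11.32 in knockout, with a 95% confidence interval of the difference from -1.41 to -1.15 (limma, adjusted p = 2.1e-25). It was the 25th largest of the 2100 falls past the threshold. Wild type arrays spanned 11.42 to 13.44 with a median of 12.61, and knockout arrays spanned 10.75 to 12.23 with a median of 11.27. Of the 32 knockout arrays, 22 lay below the lowest wild type array of any time and 0 lay above the wild type median. By time, the difference grew from -0.34 ± 0.18 at ZT0 (adjusted p = 0.212) through -1.04 at ZT3 and -1.40 at ZT6 to -1.65 at ZT9. It was -1.53 at ZT12 and reached -2.04 ± 0.18 at ZT15, which is 4.11-fold lower in knockout (adjusted p = 5.6e-13). Afterwards it narrowed to -1.33 at ZT18 and -0.90 at ZT21 (adjusted p = 0.00042). With all arrays Tcap was called lower at 7 of 8 times, and the time without a call, ZT0, was also the time of the lowest wild type mean, 11.58 ± 0.18 (SD, n = 4). With array quality weights the ZT0 difference was -0.56 and passed the test (adjusted p = 0.0273).

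The 6 arrays with the lowest sample numbers, 1 to 22, stood apart in Tcap and Mybpc3. They are knockout ZT0 replicates 6 and 8, knockout ZT12 replicates 19 and 22, knockout ZT6 replicate 2 and wild type ZT6 replicate 1. Set against the other arrays of their own groups, 6 of 6 read higher for Tcap, by 0.19 to 0.78 log2 units, and 6 of 6 read lower for Mybpc3, by 0.43 to 0.87 (deviations of -0.87 to -0.43). Csrp3 probe 3, Myh6 probe 2 and Tnni3 also read lower in 6 of 6, with median deviations of -0.22, -0.22 and -0.18. What sets these arrays apart was not tested. Wild type ZT0 and ZT12 hold none of these arrays, while 2 of 4 knockout arrays at each of those times are among them. Without the 6 arrays, a comparison added after seeing the data, the Tcap difference at ZT0 was -0.71 and passed the test (adjusted p = 0.0184), so Tcap was then called lower at 8 of 8 times. The 24 h mean difference of Tcap was -1.35 and that of Mybpc3 0.50 without them, and the Tcap amplitude difference was -0.55 (adjusted p = 0.000172). No 24 h mean call of a sarcomere probe changed.

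By the likeness of their 16 group means, the genes closest to Tcap were Nr1d2 (Pearson r = 0.969), Coq10b (0.948), Usp2 (0.932), Usp54 (0.924) and Tmem64 (0.920). These correlations describe 16 means that share the same arrays and the same genotype step, and carry no test. Nr1d2 encodes the clock repressor REV-ERB beta, Coq10b a coenzyme Q binding protein of mitochondria, and Usp2 and Usp54 belong to the ubiquitin-specific protease family. Their log2 differences of the 24 h mean were -0.74 for Nr1d2, -1.03 for Coq10b, -0.72 for Usp2, -0.48 for Usp54 and -0.20 for Tmem64, a direction that the choice by likeness over both genotypes fixes. Over the 8 wild type means alone the closest were Rassf1 (r = 0.971), Dbp (0.958), Nr1d2 (0.946), Tshz3 (0.944) and Coq10b (0.944). Of these, Rassf1 and Tshz3 had no called difference in the 24 h mean (-0.01 and -0.07, adjusted p = 0.855 and 0.303), and Dbp had one of -1.31. Dbp, a clock output transcription factor, peaked in wild type at ZT11.5, as Tcap did, with an amplitude of 1.86 in wild type and 1.41 in knockout. The rhythm difference of Dbp did not pass the test (limma F test, adjusted p = 0.0594). The other sarcomere probes had an r with Tcap between -0.77 and 0.49 over the 16 means and between -0.60 and 0.71 over the 8 wild type means. For Csrp3 probe 2 it was -0.66 over the 16 means, which hold the genotype step, and 0.71 over the 8.

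Csrp3 encodes muscle LIM protein, a Z-disc partner of telethonin, and was measured by 3 probes that were all higher in knockout. Probe 1 (ILMN_2742068) had a lowest, median and highest log2 signal of 13.53, 13.75 and 14.15 in wild type and 13.70, 14.07 and 14.38 in knockout. Probe 2 (ILMN_2789650) read 13.91, 14.10 and 14.28 in wild type and 14.22, 14.38 and 14.66 in knockout. Probe 3 (ILMN_2789651) read 12.42, 12.78 and 13.00 in wild type and 12.80, 13.07 and 13.38 in knockout. The genotypes were most clearly apart at probe 2, where 27 of 32 knockout arrays exceeded the highest wild type array, against 21 at probe 3 and 8 at probe 1. The 24 h means rose by 0.32 ± 0.04, 0.28 ± 0.03 and 0.28 ± 0.03 (limma, adjusted p = 6.9e-11, 1.3e-13 and 2.6e-10). In linear terms this was 1.25-, 1.22- and 1.22-fold, and the 3 probes share 1 transcript accession, so they are not independent of each other. The 4 knockout arrays lay above the 4 wild type arrays at 4, 7 and 6 of 8 times at probes 1, 2 and 3. How often all tested probes separate in this direction was not counted, so these counts have no background beside them.

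Actn2, the sarcomeric alpha-actinin that crosslinks thin filaments at the Z-disc, had log2 signals of 13.36, 13.57 and 13.94 in wild type and 13.54, 13.87 and 14.10 in knockout (lowest, median and highest). The ranges overlapped widely, but 31 of 32 knockout arrays lay above the wild type median. Its 24 h mean rose by 0.25 ± 0.04, or 1.19-fold (limma, adjusted p = 4.5e-08).

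Des encodes desmin, the intermediate filament protein of muscle. Its log2 signal read 13.26, 13.44 and 13.71 in wild type and 13.43, 13.71 and 14.02 in knockout (lowest, median and highest). Here 16 of 32 knockout arrays lay above every wild type array. The 24 h mean rose by 0.25 ± 0.04, also 1.19-fold (limma, adjusted p = 2.5e-08).

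Mybpc3 encodes cardiac myosin binding protein C, which sits on the thick filament, and rose the most of the sarcomere genes chosen here. Wild type arrays read 12.58, 12.94 and 13.27 and knockout arrays 12.68, 13.36 and 13.84 (lowest, median and highest log2 signal). Of the 32 knockout arrays, 21 exceeded the highest wild type array and 4 lay at or below the wild type median. Those 4 are replicates 2, 8, 19 and 22, all among the arrays numbered 1 to 22. The SD over all times was 0.27 in knockout and 0.16 in wild type. At ZT15 and ZT18, which hold none of those arrays, it was 0.07 and 0.06 in knockout and 0.17 and 0.27 in wild type. The mean difference was 0.41 ± 0.06, or 1.33-fold, in 95% confidence limits of 0.30 to 0.53 (limma, adjusted p = 7.9e-09). Among the 2059 rises past the threshold it was the 382nd largest. At ZT0 the knockout arrays read 12.89, 12.97, 13.68 and 13.84 and at ZT12 12.68, 12.84, 13.38 and 13.71, and the lower pair at each time are the arrays numbered 1 to 22. Without those 6 arrays the Mybpc3 differences at ZT0 and ZT12 were 0.83 and 0.60 and passed the test (adjusted p = 4e-05 and 0.00351), as did the one at ZT15 (0.47, adjusted p = 0.00336), while with them they were 0.42, 0.21 and 0.47 and did not. At ZT18 the knockout arrays were close together at 13.47, 13.57, 13.57 and 13.62, all above the wild type arrays at 12.75, 12.81, 13.23 and 13.27.

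**Figure D3:**
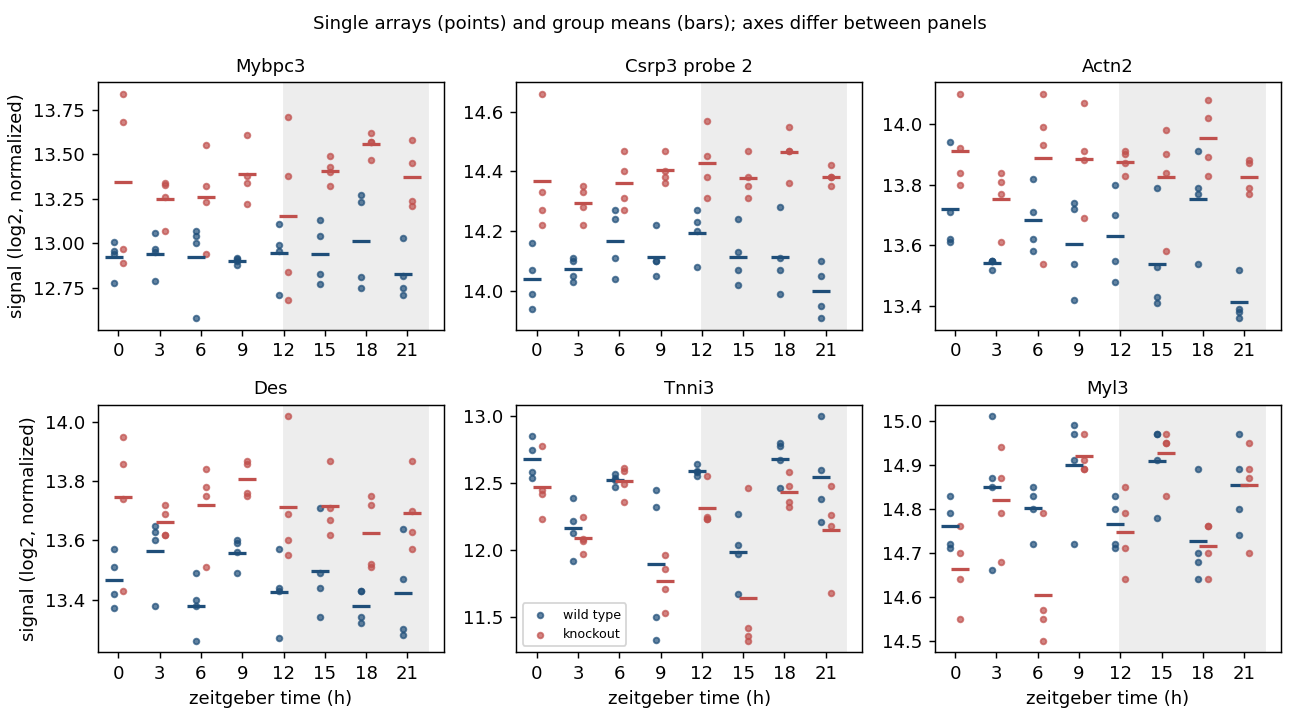
Each panel gives the normalized log2 signal against zeitgeber time in hours for Mybpc3, Csrp3 probe 2, Actn2, Des, Tnni3 and Myl3, with 1 point per array, a bar for each group mean (n = 4) and the dark phase in grey. In Mybpc3, Csrp3, Actn2 and Des the knockout means lie above the wild type means at 8 of 8 times. Tnni3 and Myl3 step up and down between neighbouring times in both genotypes.

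The promoter windows of the chosen genes were read for letters bound by clock and muscle factors. RefSeq windows of 250 bases before to 50 bases after the start site (build GRCm38.p6) were at hand for 9 of the 10 genes (12 windows), and the gene without one is Tcap, whose promoter was therefore not read. The motifs searched on both strands were CACGTG (the E-box bound by CLOCK and BMAL1), CACGTT (a variant of it) and TTATGTAA (a D-box). Searched as well were AGGTCA (the core of the sites of REV-ERB and ROR receptors) and a loose form of the MEF2 site (CTA, any 4 letters, then TAG). In this order the motifs occur in 7.15%, 4.68%, 0.938%, 16.3% and 3.69% of all 32851 windows. With positions counted from the start site, Actn2 held CACGTG at -84 and at -48 and AGGTCA at -170. The loose MEF2 pattern began at -90 in Mybpc3 and at 7 in Des, and Myl2 held AGGTCA at -141. Its 4 free letters are TATT in Mybpc3 and CAAA in Des, so the Des match is not limited to A and T. Neither CACGTT nor TTATGTAA occurred in a window of these genes. Of the 12 windows, 1 held CACGTG, 2 held AGGTCA and 2 held the loose MEF2 pattern. Neither window of Csrp3 held any of the motifs, so no motif was shared by all 4 risen genes. The matches did not overlap one another. A match describes letters and is not shown to be a bound site. The windows of the 3 risen genes with a match are printed 5′ to 3′ with the matches in capitals, shortened to end at the start site or, for Des, 16 bases past it (250, 266 and 250 bases for Actn2, Des and Mybpc3). Actn2 lies at chr13:12340733-12340982 on the minus strand, Des at chr1:75360042-75360307 on the plus strand and Mybpc3 at chr2:91117894-91118143 on the plus strand.
Actn2: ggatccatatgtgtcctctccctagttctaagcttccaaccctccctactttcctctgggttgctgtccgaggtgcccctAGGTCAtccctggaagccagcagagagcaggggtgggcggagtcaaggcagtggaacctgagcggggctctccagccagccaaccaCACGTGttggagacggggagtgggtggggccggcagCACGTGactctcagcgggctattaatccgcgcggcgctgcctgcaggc
Des: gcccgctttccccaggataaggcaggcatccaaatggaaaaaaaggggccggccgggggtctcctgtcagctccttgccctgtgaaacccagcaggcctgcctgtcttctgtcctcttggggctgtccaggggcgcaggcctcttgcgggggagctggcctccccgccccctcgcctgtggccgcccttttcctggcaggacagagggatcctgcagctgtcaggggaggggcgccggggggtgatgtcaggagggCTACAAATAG
Mybpc3: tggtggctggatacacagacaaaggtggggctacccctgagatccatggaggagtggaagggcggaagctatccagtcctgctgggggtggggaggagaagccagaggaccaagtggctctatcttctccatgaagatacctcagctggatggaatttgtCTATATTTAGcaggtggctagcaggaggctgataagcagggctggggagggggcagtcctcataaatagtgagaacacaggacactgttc

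Myh6 encodes alpha-myosin heavy chain, the main motor of the adult mouse heart, and its 2 probes were read separately. Probe 1 (ILMN_2640008) read 11.74, 12.51 and 13.23 in wild type and 11.51, 12.34 and 13.12 in knockout (lowest, median and highest log2 signal). Its mean difference of -0.17 ± 0.08 did not pass the test (limma, adjusted p = 0.0966), although it did with array weights (-0.19, adjusted p = 0.0277) and without wild type ZT9 replicate 173 or knockout ZT9 replicate 206 (adjusted p = 0.0367 to 0.0475). Probe 2 (ILMN_2788836) read 14.78, 14.89 and 15.06 in wild type and 14.61, 14.80 and 14.94 in knockout. It was called lower, by a small difference of -0.09 ± 0.03 (adjusted p = 0.00628), and 9 of 32 knockout arrays lay below every wild type array. Knockout replicates 2, 6, 19 and 22, which are among the arrays numbered 1 to 22, are part of those 9. Without the 6 arrays numbered 1 to 22 the difference was -0.06 (adjusted p = 0.0430). With median scaling in place of quantile normalization its difference was -0.02 and not called (adjusted p = 0.770). It was not called on either time set alone, at -0.10 (adjusted p = 0.0977) and -0.075 (adjusted p = 0.210).

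Myl2 and Myl3 encode the regulatory and the essential ventricular light chains of myosin. Myl2 read 14.63, 14.86 and 15.03 in wild type and 14.61, 14.87 and 15.01 in knockout (lowest, median and highest log2 signal), with a difference of -0.02 ± 0.03 (adjusted p = 0.725). Myl3 read 14.64, 14.82 and 15.01 in wild type and 14.50, 14.79 and 14.97 in knockout, with a difference of -0.04 ± 0.03 (adjusted p = 0.274). The genotypes overlapped at all 8 times for both genes, and median scaling turned the sign of both differences, to 0.06 and 0.04. The 95% confidence intervals, -0.08 to 0.05 for Myl2 and -0.10 to 0.02 for Myl3, bound any change of these 24 h mean signals under quantile normalization. Myl2, Myl3 and Myh6 probe 2 were among the 32 brightest probes on every array, at 66.2% to 95.3% of the array's brightest raw intensity. Quantile normalization gives rank 3 a log2 signal of 15.06 and rank 32 one of 14.50, so these 3 probes could move only within a narrow span, and whether that hid differences was not tested. Tcap lay at 5.6% to 28.9% of the brightest intensity, at ranks 119 to 1032.

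Tnni3 encodes cardiac troponin I, the inhibitory subunit of troponin on the thin filament. Wild type arrays read 11.33, 12.50 and 13.00 and knockout arrays 11.32, 12.25 and 12.78 (lowest, median and highest log2 signal). The ranges overlapped almost fully, and 5 of 32 knockout arrays exceeded the wild type median. Its 24 h mean was called lower, by -0.21 ± 0.07 (limma, adjusted p = 0.00911), which is 1.16-fold lower. The call was lost with median scaling (-0.11, adjusted p = 0.270), without the time set term (-0.21, adjusted p = 0.0657) and on ZT3, 9, 15 and 21 alone (-0.24, adjusted p = 0.160).

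Tnni3 signal also differed between the sets of times, being lower by 0.49 ± 0.07 (set difference -0.49, SE) on the arrays of ZT3, 9, 15 and 21 than on those of ZT0, 6, 12 and 18. For instance, wild type group means were 12.68 ± 0.15 at ZT0, 12.17 ± 0.20 at ZT3, 12.52 ± 0.04 at ZT6 and 11.90 ± 0.57 at ZT9 (SD, n = 4). This alternation appeared in both genotypes, with knockout means of 12.47 ± 0.23, 12.09 ± 0.11, 12.51 ± 0.12 and 11.77 ± 0.19 at the same times. Set differences in the other direction were 0.16 ± 0.03 for Myl3 and 0.13 ± 0.03 for Myl2, and Actn2 had -0.13 ± 0.04. Csrp3 had -0.11 ± 0.04 at probe 1, -0.05 ± 0.03 at probe 2 and 0.10 ± 0.03 at probe 3, so probes of 1 gene differed in sign. For Tcap the set difference was 0.12 ± 0.07. Times and sets cannot be told apart here, so these values are no result on time of day. The genotype difference itself did not differ between the sets for any of the 12 probes, and 0% of all tested probes passed that test (limma, 0 of 12101, with 1004 at an unadjusted p under 0.05, none of them a sarcomere probe). Tcap was -0.26 ± 0.13 in that test (adjusted p = 0.596).

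Apart from Tcap, no sarcomere probe was called rhythmic in wild type, in knockout or in the difference of rhythm. Their amplitudes were at most 0.21, that of Tnni3 in wild type (0.21 ± 0.07, adjusted p = 0.152). The adjusted p of the rhythm difference was 1.00 for each of those 11 probes. At an unadjusted p under 0.05, 4 of the 12 probes were rhythmic in wild type, 2 in knockout and 1 in the difference, with Tcap counted in each, against 14.4%, 14% and 4.57% of all tested probes. For Mybpc3 the amplitude was 0.02 ± 0.06 in wild type and 0.10 ± 0.06 in knockout, with a 95% confidence interval of the difference from -0.08 to 0.24.

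At single times the risen genes passed the test less evenly than Tcap, in a model with 1 mean per group. Csrp3 probe 2 was called higher at ZT0, 9, 15, 18 and 21, by 0.26 to 0.38, and probe 1 at ZT0, 3, 18 and 21, by 0.35 to 0.46. Csrp3 probe 3 was called at ZT0 (0.29) and ZT9 (0.32). Mybpc3 was called at ZT9 (0.48), ZT18 (0.54) and ZT21 (0.54), Actn2 at ZT21 (0.41 ± 0.10, adjusted p = 0.00995) and Des at ZT6 (0.34 ± 0.10, adjusted p = 0.0435). Myh6 probe 2 was called lower at ZT0 (-0.23 ± 0.08, adjusted p = 0.0411). Without the arrays numbered 1 to 22, 3 of these 17 calls were lost and 6 were gained. The calls lost were Csrp3 probe 3 at ZT0, Des at ZT6 and Myh6 probe 2 at ZT0. With all arrays, 6 of 12 probes were called higher at 1 or more times and 2 of 12 lower, against 10.9% and 10.2% of all tested probes. By time, the share of all tested probes called in either direction ran from 3.74% at ZT3 and ZT6 to 10.7% at ZT0, while 0 to 4 sarcomere probes were called higher and 1 was called lower at each time. Many of these single-time calls turned on 1 array. The Mybpc3 call at ZT9 was lost on leaving out any of 47 arrays (adjusted p up to 0.177), those at ZT18 and ZT21 on leaving out any of 5 arrays each, and the Des call at ZT6 and the Myh6 call at ZT0 on leaving out any of 6 arrays each. The Csrp3 calls lost in this way were probe 3 at ZT0 (19 arrays) and ZT9 (4), probe 1 at ZT21 (16), ZT3 (6) and ZT18 (1), and probe 2 at ZT15 (7) and ZT9 (1). The 7 calls of Tcap held on leaving out any 1 array, as did those of Actn2 at ZT21, Csrp3 probe 1 at ZT0 and Csrp3 probe 2 at ZT0, 18 and 21. With median scaling Tcap kept its 7 calls, but 14 of the 17 single-time calls of the other probes were lost and 4 were gained, and the calls kept were Csrp3 probe 1 at ZT0, Des at ZT6 and Mybpc3 at ZT18. Without a filter on dim probes 7 of the 17 were lost.

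**Figure D4:**
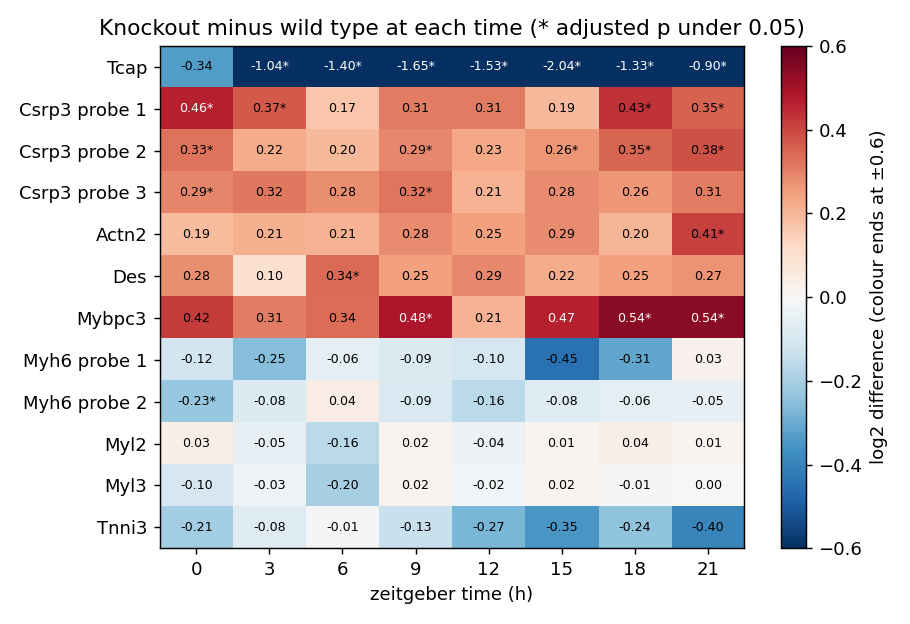
Each cell gives the knockout minus wild type difference in log2 units of 1 sarcomere probe (rows) at 1 zeitgeber time in hours (columns), from 4 arrays per genotype, with an asterisk where the adjusted p is under 0.05. Colours end at 0.6, so Tcap cells are saturated, and their printed values reach -2.04 at ZT15. Csrp3, Actn2, Des and Mybpc3 are positive at all 8 times.

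The rest of the sarcomere was read from 6 lists of other genes, of which 57 were tested. Of these, 13 were higher and 11 lower in the 24 h mean, with a median difference of 0.01, against 17% higher, 17.4% lower and a median of -0.01 over all tested probes. These shares are near that background, so the lists are described by their genes and no list is read as changed. Among Z-disc and titin genes 5 of 19 were higher and 4 lower. Myot, which encodes the Z-disc protein myotilin, fell by 1.32 (difference -1.32 ± 0.07) and was detected on 32 wild type but 7 of 32 knockout arrays, so its knockout level is mostly not above background and the size of the fall is limited by that background. Ankrd1, a stress-responsive partner of titin, rose by 0.73 ± 0.07, and Capzb, the barbed-end capping protein of thin filaments, by 0.27 ± 0.04. Pdlim3, an alpha-actinin partner, had a difference of -0.46 ± 0.06. Pdlim5 (0.47 ± 0.11) and titin itself (Ttn, -0.01 ± 0.03, adjusted p = 0.838) were chosen after their values were seen, Ttn because telethonin binds it. Z-disc genes were thus called in both directions.

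In the thin filament list 3 of 8 genes were higher and 3 lower. Acta1, the skeletal alpha-actin that the heart also expresses, rose by 0.78 ± 0.16 (limma, adjusted p = 4.7e-05), and Tmod1, the pointed-end cap, rose by 0.34 ± 0.07. The tropomyosin genes Tpm2 and Tpm1 were lower, with differences of -0.29 ± 0.06 and -0.17 ± 0.05. Of 5 thick filament genes 1 was higher, the cardiac myosin light chain kinase gene Mylk3 (0.35 ± 0.09), and 0 were lower. Myh7, which encodes beta-myosin heavy chain, was not called (-0.28 ± 0.14, adjusted p = 0.109), and it was chosen after its values were seen. In the M band 1 of 3 genes was higher, Myom1, which encodes myomesin (0.20 ± 0.05).

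Among genes of the intermediate filament, intercalated disc and costamere, 2 of 11 were higher and 1 lower. Ctnna3, an alpha-catenin of the intercalated disc, fell by 0.75 (difference -0.75 ± 0.08) and was detected on 31 wild type but 9 of 32 knockout arrays, which limits the size of its fall in the same way. The desmosomal gene Pkp2 rose by 0.27 ± 0.04 and the vinculin gene Vcl by 0.13 ± 0.05. Of 11 genes of sarcomere assembly and turnover, 1 was higher, the small heat shock protein gene Hspb7 (0.13 ± 0.05). The transcription factor gene Mef2a (-0.22 ± 0.06) and the ubiquitin ligase genes Trim54 (-0.19 ± 0.06) and Fbxo32 (-0.17 ± 0.07) were lower. Over the 57 genes, 2 were called rhythmic in wild type (Pkp2 and Hspb7), 2 in knockout (Csrp1 and Srf) and 0 in the difference of rhythm (limma, adjusted p under 0.05), against 3.55%, 1.17% and 0.24% of all tested probes.

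**Figure D5:**
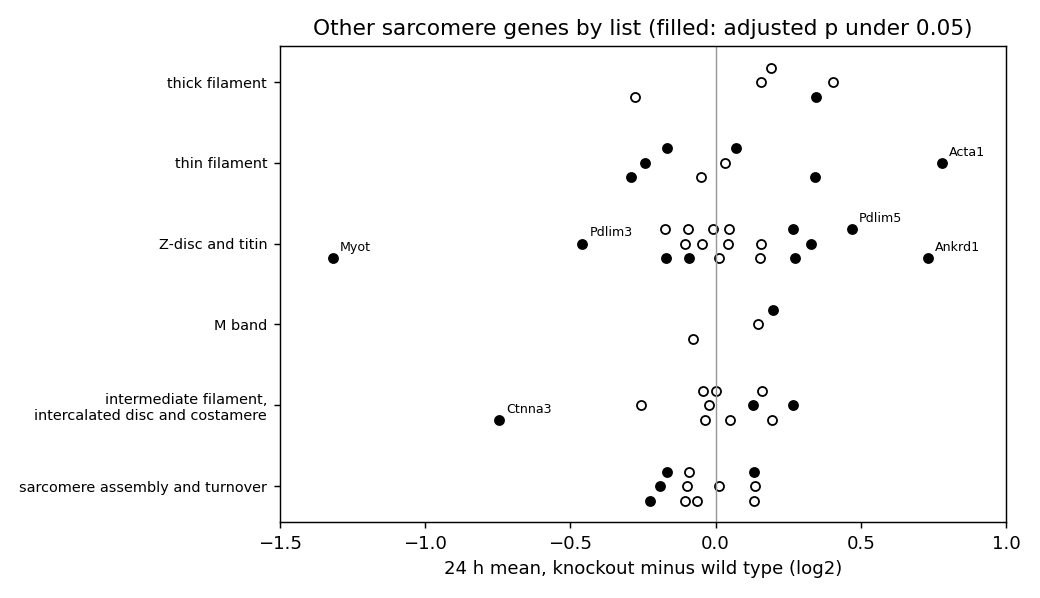
The horizontal axis gives the difference of the 24 h means, knockout minus wild type, in log2 units, for the genes of 6 sarcomere lists, with 1 circle per gene and list and filled circles for an adjusted p under 0.05. Rows of circles within a list only keep them apart. The values of Myot and Ctnna3 are limited by background in knockout. Names mark called genes far from 0: Myot (-1.32), Ctnna3 (-0.75) and Pdlim3 (-0.46) on the left and Pdlim5 (0.47), Ankrd1 (0.73) and Acta1 (0.78) on the right.

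Markers of other cell types were read beside these differences, and their part in the results was not tested. Of 8 atrial markers 1 was called, Nppa, higher in knockout by 0.67 ± 0.16. The summed linear signal of the atrial list ran from 4719 to 38000 in wild type (median 12146) and from 11430 to 48003 in knockout (median 19636). These ranges overlap and are wide, so single arrays differed several-fold in atrial signal within each genotype. Of 7 tested skeletal muscle markers 3 were lower, Myl1 (-0.81 ± 0.10), Pvalb and Atp2a1. Pvalb was detected on 5 wild type and 0 knockout arrays, and Atp2a1 on 9 and 1. Both lie near background and passed the filter only through wild type, so their calls are not read as a result. Sums of this list were 11297 to 17252 in wild type and 9504 to 14661 in knockout. These sums rest mostly on Ckm, which was not called (24 h mean log2 signal 13.35 and 13.31), then on Myl1 (11.51 and 10.70). The skeletal muscle genes Myh1, Myh4, Tnnt3, Tnnc2 and Actn3 were detected on fewer than 4 of the 64 arrays. Fibroblast markers were higher in 2 of 7 cases and lower in 0, endothelial markers lower in 4 of 6, myeloid markers lower in 3 of 5, and smooth muscle and pericyte markers lower in 1 of 5. Of 10 other cardiomyocyte genes 2 were higher, Casq2 (0.41 ± 0.05) and Ckmt2 (0.13 ± 0.03), and 4 were lower, Corin (-0.36 ± 0.04), Ryr2 (-0.29 ± 0.07), Pln (-0.24 ± 0.06) and Hrc (-0.13 ± 0.04). Their summed signal was 142107 to 165571 in wild type and 142623 to 167948 in knockout. Over all tested probes 17% were called higher and 17.4% lower. The marker lists are short, and none is read as changed.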

How the data were processed

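Whole-heart RNA was hybridised to 64 single-colour bead arrays in 16 groups of 4. The main values deposited for a probe on an array are its mean bead intensity on a linear scale, per the file headers. A second deposited column gives the detection p-value of that intensity, per the file headers. The software behind both was not given in the sources at hand. A processed intensity from the authors, with 26.2% of values below 0 and column medians of 14.40 to 14.58, served as an alternative. Each of its 64 columns matched its own array best, and which steps made it is unknown.

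Background was removed with the normexp model from the detection p-values (limma 3.58.1 in R 4.3.3, offset 16), and arrays were quantile normalized and log2 transformed. Kept were 12101 of 25697 probes, those whose detection p fell below 0.01 on 4 arrays or more. Of all probes, 23978 had 1 gene symbol in the platform annotation, 0 had several and 1719 had none. Spearman correlations between arrays reached 0.922, so no array appears to be deposited 2 times.

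The study's design text names cosinor analysis. Each probe was fitted with limma by a mean, cosine and sine (24 h period) per genotype plus a time set term, on all 64 arrays with a shared estimate of the spread. A second model had 1 mean per group, and another a genotype by time set term. Benjamini-Hochberg adjustment ran over the 12101 probes (threshold 0.05), and the fits were tested on simulated data. Errors after ± are SE unless marked SD. Promoter windows are from RefSeq.

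The genes, the lists and the tests were chosen with earlier results of these data known. Named were every probe of the chosen genes; up to 4 genes per sarcomere list with the smallest adjusted p of the 24 h mean and up to 2 by that of the rhythm difference; the 5 genes most like Tcap over 16 and over 8 group means; Arntl; and genes whose windows hold a motif. Other names were chosen after their values were seen, among them the marker genes. Alternatives covered the normalization, the filter, the variance prior, array weights, the time sets and each array left out, with 2 sets of arrays that stood apart left out after seeing the data.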

Additional observations from a re-analysis of the deposited data

Results flagged for a closer look

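The loss of Tcap amplitude in knockout (-0.58 ± 0.09, SE) is listed because the effect of time of day differed between the genotypes in a test of the difference itself. The choice of Tcap as rhythmic in wild type is not independent of it.

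In each group of 4 arrays the lowest and highest array were set against the other 3 by Dixon's criterion (a gap over 0.829 of the group's range). Of 192 groups of the 12 sarcomere probes, 14 exceeded it, and chance gives about 1 in 20 groups. For Tcap, wild type ZT9 replicate 169 was low at 13.14 (others 13.41 to 13.44), knockout ZT15 replicate 178 was low at 10.99 (others 11.24 to 11.29) and knockout ZT18 replicate 140 was high at 11.5 (others 11.06 to 11.13). The Tcap groups of these times stayed apart between genotypes with those arrays included.

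Among Z-disc probes, Csrp3 probe 1 was low in knockout ZT3 replicate 201 (13.85, others 14.08 to 14.11). Csrp3 probe 3 was low in wild type ZT6 replicate 1 (12.42, others 12.72 to 12.77), and Actn2 was low in wild type ZT3 replicate 204 (13.52, others 13.55). The gap for Actn2 is a few hundredths of a log2 unit because the other 3 arrays were nearly equal. Mybpc3 was low in wild type ZT6 replicate 1 as well (12.58, others 13.00 to 13.07), an array that also spread widely over all probes and is 1 of the 6 arrays numbered 1 to 22.

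Of the myosin probes, Myh6 probe 1 was low in wild type ZT6 replicate 151 (12.03, others 12.41 to 12.46) and Myh6 probe 2 was low in knockout ZT6 replicate 2 (14.7, others 14.91). Myl2 was high in the same knockout ZT6 replicate 2 (14.91, others 14.61 to 14.66) and in wild type ZT18 replicate 143 (14.99, others 14.63 to 14.68). In knockout ZT15 replicate 182, Myl3 was low at 14.83 (others 14.95 to 14.97) and Tnni3 was high at 12.46 (others 11.32 to 11.42). Tnni3 was also high in knockout ZT12 replicate 147 (12.55, others 12.23 to 12.25).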

How the results depend on the processing

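The 24 h mean differences of Tcap (-1.41 to -1.15 over 14 alternatives), Mybpc3 (0.38 to 0.54), Actn2, Des and the 3 Csrp3 probes kept their direction and passed the threshold in every alternative run and without any 1 array. Myh6 probe 1 passed with array weights (-0.19) and ranged from -0.20 to -0.14 with 1 array left out. Myh6 probe 2 was not called with median scaling (-0.0212) or on ZT0, 6, 12 and 18 (-0.10) or ZT3, 9, 15 and 21 (-0.075) alone, nor Tnni3 with median scaling (-0.11), without the time set term (-0.21) or on ZT3, 9, 15 and 21 alone (-0.24). The Tcap amplitude difference missed the threshold on ZT0, 6, 12 and 18 alone (-0.59, 0 sarcomere probes called), where 32 arrays were fitted. The Tcap difference at ZT0 passed with array weights (-0.56) and without the 6 arrays numbered 1 to 22 (-0.71). Over all probes, calls on the 24 h mean numbered 2377 on ZT3, 9, 15 and 21 alone. Rhythms called in wild type numbered 240 with median scaling, 716 with array weights, 113 on ZT0, 6, 12 and 18 and 131 on ZT3, 9, 15 and 21. In knockout they numbered 51, 219 and 21 in the first 3 of these, and 92 without the 4 widely spread arrays. Rhythm differences numbered 14 with median scaling, 47 with array weights and 10 and 12 on the time sets in the same order. The cause of these changes was not tested, except that each time set holds fewer arrays. No paired analysis was possible because the sample numbers are not shared between groups. A block for the slide was not run, since the files used here name no slides. No result reversed its direction past the threshold.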
